A study of Homo sapiens with 6 samples.

Results

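The genes described here encode the proteins of the mitochondrial ribosome. They were taken as the protein-coding rows of the deposited gene table whose symbol starts with MRPL or MRPS followed by a digit, which gave 78 of 58735 genes, 49 named MRPL for the large subunit and 29 named MRPS for the small subunit. Mitochondrial ribosomes translate the few messenger RNAs made from mitochondrial DNA, which encode core subunits of the respiratory chain and ATP synthase. Their 2 ribosomal RNAs come from mitochondrial DNA, whereas all of their proteins are encoded in the nucleus, translated in the cytosol and imported. Some of these proteins have counterparts in bacterial ribosomes and others are specific to mitochondria. A few names are historical: the proteins of MRPS30 and MRPS18A sit in the large subunit, and that of MRPS36 is now known as a part of the 2-oxoglutarate dehydrogenase complex.

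The cells were Raji, a human B-cell line derived from a Burkitt lymphoma, carrying a GFP and firefly luciferase reporter in both groups. They were exposed overnight at 37 °C to DMSO, the solvent, or to 1 nM bryostatin-1, a natural macrocyclic lactone that binds and activates protein kinase C. Polyadenylated RNA was sequenced from 3 libraries per group, 6 in all, with 19405370 to 24468270 reads on genes per library as recovered from the deposited values. Nothing in the labels says that the libraries of a group are separate cultures. The p-values therefore rest on the spread among these libraries alone, and that spread may be technical. All 10 B-cell markers were at a mean of at least 1 FPKM, with summed levels of 5859 to 6710 FPKM in DMSO and 5207 to 5908 FPKM with bryostatin. T-cell markers, 2 of 8 at a mean of 1 FPKM or more, summed to 4.41 to 12.9 FPKM in DMSO and 5.13 to 14.95 FPKM with bryostatin, and markers of the other cell types were lower. DMSO replicate 3 differed from the other DMSO libraries across many genes: without it 267 genes passed an adjusted p of 0.05, against 0 with all libraries. Values without it are given below for the group and for some of the named members.

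Mitochondrial ribosomal protein transcripts were mostly higher with bryostatin, by small amounts. FPKM are fragments scaled by gene length and by the reads of the library, and changes are differences of log2(FPKM + 1), bryostatin minus DMSO. Of the 78 genes 76 had a mean of at least 1 FPKM and were tested, and 61 of these were higher with bryostatin and 15 lower (53.9% of all tested genes were higher). Their median change was 0.19 on the log2 scale, against 0.02 over all 11071 tested genes. No member passed an adjusted p of 0.05 in limma, nor did any other gene (0.00% of all tested). A gene is said below to be called where its limma p without adjustment was under 0.05. Of the 76 members 27 were called higher and 0 lower, while 10.5% of all tested genes were called higher and 7.18% lower. With voom weights on the recovered reads, 0 genes passed after adjustment (0.00%), and 24 members were called higher and 0 lower, against 10.3% and 9.39% of all genes. In 37 members each bryostatin library lay above each DMSO library, and in 1, MRPL45, each lay below. Over all tested genes these shares were 12.9% and 10.7%. The members had been chosen with earlier results in view and share libraries, so these counts are a description and not a test of the group.

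The members as a group separated the libraries by treatment. Relative to the mean of the 6 libraries, the median member was at -0.10, -0.11 and -0.05 in DMSO replicates 1 to 3 and at 0.18, 0.08 and 0.02 with bryostatin. The DMSO and bryostatin medians thus did not overlap, and DMSO replicate 3 stayed on the DMSO side. The same medians over all tested genes ran from -0.02 to 0.02. Separation was not particular to the members. The 2745 tested genes of 2000 to under 4000 bases were at -0.04, -0.04 and -0.02 in DMSO and 0.07, 0.03 and 0.03 with bryostatin. The 29 members among them were at -0.12, -0.11 and -0.03 and at 0.18, 0.09 and 0.01. Medians of genes of 1000 to under 2000 bases also did not overlap between groups, and those under 1000 or from 4000 bases upward did. Among members, bryostatin replicate 1 was the highest library and bryostatin replicate 3 the lowest of its group. Without DMSO replicate 3 the median change was 0.21, and 31 members were called higher against 15.6% of all genes (2.41% of all genes then passed after adjustment). That count was 17 without DMSO replicate 1 (5.79% of all genes) and 15 without bryostatin replicate 1 (5.06% of all genes), with median changes of 0.17 and 0.15. With values rescaled to TPM 19 members were called higher and 0 lower (7.66% and 9.93% of all genes), and with quantile normalisation 18 higher and 2 lower (8.07% and 9.19%).

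**Figure D1:**
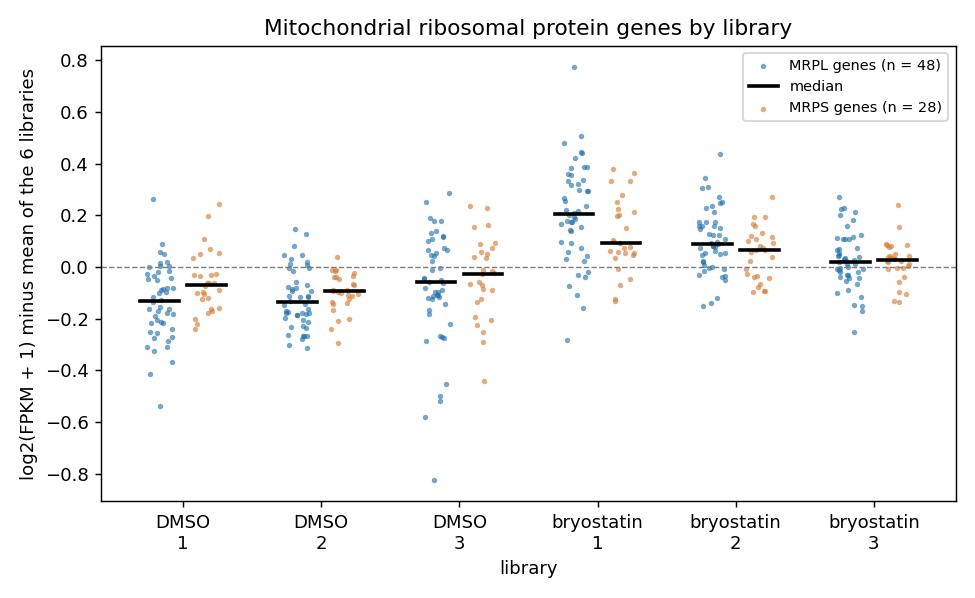
Level of each tested member in each library, as log2(FPKM + 1) minus the mean of the 6 libraries, for 48 MRPL and 28 MRPS genes; each point is a gene and black bars are medians. The MRPL medians are -0.13, -0.14 and -0.06 in the DMSO libraries and 0.21, 0.09 and 0.02 in the bryostatin libraries.

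The MRPL genes held most of the larger differences. Of 48 tested, 39 were higher with bryostatin and 21 (43.8%, against 10.5% of all tested genes) were called higher, with a median change of 0.24. MRPL51, a mitochondria-specific protein of the large subunit, was at 70.8, 91.3 and 68.6 FPKM in the DMSO libraries and at 177.3, 128.2 and 118.8 FPKM with bryostatin. Its groups were well apart, and bryostatin replicate 1 was the highest. The change was 0.86 with a 95% interval from 0.44 to 1.28, or 1.82-fold, the only member past 1.5-fold (adjusted p = 0.216 in limma, 0.0872 without DMSO replicate 3). MRPL51 is gene ENSG00000111639 on chromosome 12 from 6491886 to 6493841, minus strand, and 31.3% of its exonic bases overlap NCAPD2, a condensin subunit gene on the opposite strand. NCAPD2 had a change of 0.40, and since the strand setting of the counting is not given, reads in the shared bases cannot be assigned to either gene with certainty.

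MRPL11 encodes a protein of the GTPase-associated region, near where translation factors bind. It was at 18.9, 21.0 and 23.5 FPKM in DMSO and 33.1, 28.6 and 31.0 FPKM with bryostatin, with the highest DMSO library below the lowest bryostatin library. Its change of 0.53 (95% interval 0.28 to 0.78) had the smallest unadjusted p of the members, 0.00147 (adjusted p = 0.216 in limma). It was the only member that passed without DMSO replicate 3, with a change of 0.60 and an adjusted p of 0.0443. MRPL27, a counterpart of a bacterial protein near the peptidyl transferase centre, was at 9.29, 9.56 and 9.28 FPKM in DMSO and 16.6, 12.2 and 13.1 FPKM with bryostatin. The DMSO libraries lay close together and the bryostatin libraries were more spread, with replicate 1 the highest (change 0.52, 1.43-fold).

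MRPL52, a mitochondria-specific protein, was at 11.5, 15.3 and 10.2 FPKM in DMSO and 20.9, 18.4 and 17.0 FPKM with bryostatin. MRPL24, a counterpart of a bacterial protein that acts early in large-subunit assembly, was at 28.2, 34.2 and 24.0033 FPKM and at 46.3, 37.6 and 40.4 FPKM. In both, DMSO replicate 2 came nearest to the bryostatin libraries without reaching them. Their changes were 0.58 and 0.52, or 0.46 and 0.40 without DMSO replicate 3. MRPL33, a small protein of the large subunit, was at 13.3, 13.8 and 10.7 FPKM in DMSO and 19.97, 18.8 and 15.4 FPKM with bryostatin, a change of 0.49 that was 0.38 without DMSO replicate 3.

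MRPL12 and MRPL10 form the stalk that recruits translation factors, and neither was called. MRPL12 was at 36.0, 40.9 and 20.6 FPKM in DMSO and 52.4, 44.1 and 38.1 FPKM with bryostatin. Its groups overlapped, since bryostatin replicate 3 lay below DMSO replicate 2, and DMSO replicate 3 was the lowest library. The change of 0.50 had an interval from -0.09 to 1.09, and without DMSO replicate 3 it was 0.21. MRPL10 was at 24.2, 26.8 and 23.3 FPKM in DMSO and 24.6, 22.1 and 23.96 FPKM with bryostatin, with overlapping groups and a change of -0.07 (95% interval -0.28 to 0.14).

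Other large-subunit genes of known role had smaller differences. MRPL58, which has peptidyl-tRNA hydrolase activity and rescues stalled ribosomes, was at 20.2, 20.2 and 22.8 FPKM in DMSO and 26.3, 24.4 and 24.9 FPKM with bryostatin. Its groups did not overlap, and its change was 0.25, called higher but with an adjusted p of 0.234 in limma. MRPL14 and MRPL54, 2 of the 3 shortest members, had changes of 0.43 and 0.34 without overlap, and MRPL41, a mitochondria-specific protein, had 0.35 with bryostatin replicate 3 at 48.0 FPKM just above the highest DMSO library at 47.3 FPKM. Without DMSO replicate 3 their changes were 0.41, 0.31 and 0.37, and MRPL41 was no longer called. MRPL15, one of the most abundant members, had a change of 0.26 without overlap. MRPL3 and MRPL44, in which mutations cause cardiomyopathy, had changes of 0.17 and -0.03 with overlapping libraries, and without DMSO replicate 3 these were 0.26 and 0.05.

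**Figure D2:**
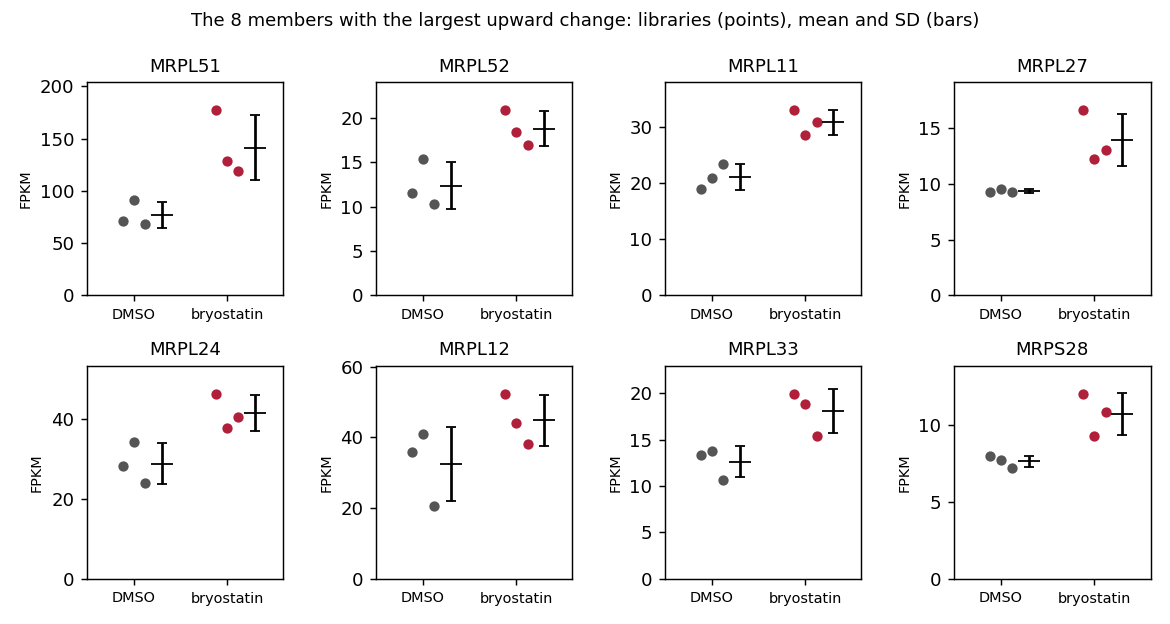
FPKM in each library (points) with mean and SD (bars, n = 3 per group) for the 8 members with the largest upward change. The 8 were picked by their change in these same libraries, which favours separation. In 7 of them each bryostatin library lies above each DMSO library (12.9% of all tested genes), and in MRPL12 they overlap.

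Of 28 tested MRPS genes 22 were higher with bryostatin and 6 (21.4%, against 10.5% of all tested genes) were called higher, with a median change of 0.15. With TPM, median-of-ratios scaling, quantile normalisation or the length trend removed, 3 (10.7%) were called higher, against 7.66%, 9.22%, 8.07% and 8.17% of all genes, and the median was 0.11, 0.13, 0.08 and 0.08. Whether this median differs from that of the MRPL genes was not tested. The largest difference was in MRPS28, at 7.97, 7.74 and 7.23 FPKM in DMSO and 12.1, 9.33 and 10.9 FPKM with bryostatin. Its change was 0.44 (95% interval 0.19 to 0.68). MRPS28 had 263 to 426 reads per library. It shares 55.4% of its longest coding transcript with AC036214.3 on the same strand. MRPS26, a mitochondria-specific protein of the small subunit, was at 67.4, 68.8 and 63.7 FPKM in DMSO and 90.6, 92.0 and 78.1 FPKM with bryostatin, a change of 0.37. MRPS34, the most abundant member and a Leigh syndrome gene, was at 148.5, 141.0 and 129.8 FPKM and at 168.6, 173.8 and 154.3 FPKM. All 3 had bryostatin libraries above all DMSO libraries, and the change of MRPS34 was 0.24. Without DMSO replicate 3 it was 0.19 and no longer called.

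MRPS16, MRPS12 and MRPS5, conserved proteins of the small subunit, had changes of 0.21, 0.18 and 0.15, each without overlap between groups. MRPS5 varied little: it was at 12.3, 12.1 and 12.2 FPKM in DMSO and 13.6, 13.4 and 13.7 FPKM with bryostatin, yet it was not called (95% interval -0.02 to 0.31), since limma draws the spread of each gene towards that of genes of like level. MRPS22, another disease gene, was at 6.09 ± 0.658 FPKM in DMSO and 5.98 ± 0.131 FPKM with bryostatin (SD, n = 3), a change of -0.02 with an interval from -0.23 to 0.19. MRPS36 was at 14.1, 13.6 and 9.82 FPKM and at 15.9, 15.5 and 14.2 FPKM, a change of 0.28 that was 0.13 without DMSO replicate 3, its lowest library.

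The 3 MRPS18 paralogs, which are related to 1 bacterial protein but occupy different places in the mitochondrial ribosome, did not share a direction. MRPS18C was at 2.83, 2.45 and 3.01 FPKM in DMSO and 4.14, 3.31 and 2.91 FPKM with bryostatin, a change of 0.24. MRPS18B had a change of 0.05, which turned to -0.057 with quantile normalisation. MRPS18A was at 14.1, 10.0 and 13.3 FPKM and at 10.6, 12.3 and 10.6 FPKM, a change of -0.13. In each paralog the groups overlapped, and a gene on the opposite strand overlaps 47.0% of the exonic bases of MRPS18A (RSPH9) and 40.2% of those of MRPS18C (ABRAXAS1).

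The lowest changes were small. Besides MRPS18A they were those of MRPL42 at -0.14, MRPL45 at -0.13 and MRPS27 at -0.13, with 95% intervals that all included 0. MRPL45 was at 35.9, 35.3 and 37.0 FPKM in DMSO and 30.8, 34.2 and 34.0 FPKM with bryostatin. MRPS27, a pentatricopeptide repeat protein, was at 37.7, 34.6 and 37.2 FPKM and at 32.0, 32.5 and 35.7 FPKM, with 1 bryostatin library inside the DMSO range. The lowest of them, that of MRPL42, was 1.10-fold. The 95% interval lay within 2-fold either way in 74 of 76 members and within 1.5-fold in 59. Members were also grouped by origin, a grouping made after the values were seen. Of 45 tested proteins with a bacterial counterpart 18 (40.0%) were called higher, with a median change of 0.22. Of 30 mitochondria-specific ones 9 (30.0%) were called higher, with a median change of 0.15. The share over all tested genes was 10.5%. Among the related MRPS18 paralogs, MRPS18C was placed with the bacterial counterparts and MRPS18A and MRPS18B with the mitochondria-specific proteins. The difference was not tested.

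**Figure D3:**
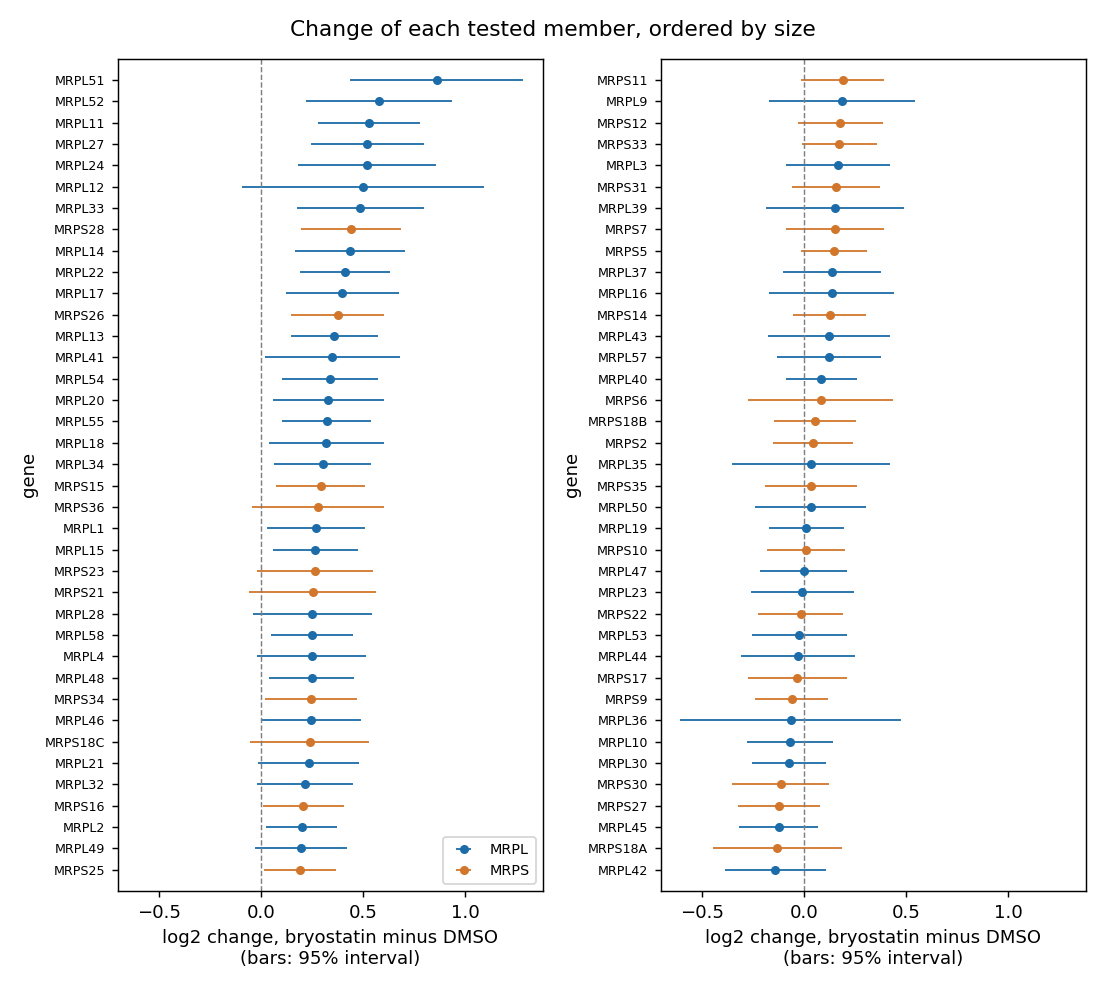
Change of each of the 76 tested members (bryostatin minus DMSO, log2 scale, points) with its 95% interval from limma (bars), in order of size, MRPL in blue and MRPS in orange. Changes run from -0.14 in MRPL42 to 0.86 in MRPL51.

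Levels of the members spanned a wide range, from 0.0736 to 152.7 FPKM as the mean of the 6 libraries, with a median of 20.2 FPKM. The length behind each FPKM is the union of all annotated exons of the gene, which had a median of 2539 bases over the members, whereas the longest coding transcript had a median of 1516 bases. Levels of genes with long alternative exons are therefore understated when genes are compared. The 4 lowest members, named after their values were seen, were MRPS24, MRPL38, MRPL53 and MRPL46, and each shares most of its longest coding transcript with another gene on the same strand. For MRPS24 that share was 81.0%, with the readthrough gene URGCP-MRPS24, and it had only 3 to 5 reads per library, while the readthrough gene itself was at 0 to 0.0663 FPKM. MRPL38, also below the level needed for testing, shares 67.9% and was at 0.872 ± 0.119 FPKM in DMSO and 1.00 ± 0.128 FPKM with bryostatin (SD, n = 3). MRPL53 and MRPL46 share 52.3% and 71.1% and were at means of 1.66 and 1.67 FPKM. The 10 members sharing at least 20% had a median level of 7.08 FPKM and the other 68 a median of 23.6 FPKM. The 10 include the 4 lowest members, so this gap is not a separate observation. MRPL12, at 38.7 FPKM, shares 68.2%, so a high share did not always go with a low level. How reads that fall on several genes were counted is not given in the sources used here, and its part in these levels was not tested.

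The members are shorter than most expressed genes, whose median length was 4455 bases, and the change was related to length. Across the 76 members, the change had a Pearson correlation of -0.25 and a Spearman correlation of -0.22 with log10 gene length. The same values over all 11071 tested genes were -0.16 and -0.23, and over the 9265 protein-coding ones -0.31 and -0.31. These are correlations across genes of the same 6 libraries, which are not independent replicates. With the length of the longest coding transcript in place of gene length, the members gave -0.34 and -0.37, all tested genes -0.18 and -0.25, and the protein-coding ones -0.33 and -0.34. Without DMSO replicate 3 the Pearson correlation with gene length was -0.16 in the members and -0.07 over all genes, and the Spearman correlation was -0.13 and -0.16.

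Split by gene length into classes, with an open class at the top, the members had higher medians than all tested genes, which include them. The difference was not tested. Not all tested genes are protein-coding, as the members are. Over the 9265 that are, the Pearson correlation of change with length was stronger, at -0.31 against -0.16 over all. The class medians were not taken over protein-coding genes alone. Among genes of 1000 to under 2000 bases, the median change was 0.25 for the 29 members and 0.12 for all 965 tested genes, and 14 members (48.3%) against 22.6% of genes were called higher. For 2000 to under 4000 bases the medians were 0.16 for 29 members and 0.07 for 2745 genes, with 8 members (27.6%) against 15.3% of genes. For 4000 bases or more they were 0.19 for 17 members and -0.01 for 6170 genes, with 4 members (23.5%) against 6.14% of genes. MRPL14 was the only member under 1000 bases. In all, 54 of 76 members were above the median of their class and 22 were not.

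The length relation also ran along the libraries. Genes of 1000 to under 2000 bases were at a median of -0.05, -0.03 and -0.10 in DMSO and 0.10, 0.07 and 0.03 with bryostatin, relative to the mean of the 6 libraries, while genes of 4000 bases or more stayed between -0.02 and 0.03. A trend on gene length, fitted over all tested genes and not the protein-coding ones alone, was removed from each library. The median change of the members was then 0.13, and 53 of 76 were higher. Then 16 were called higher and 1 lower, against 8.17% and 7.78% of all genes. The 1 lower gene was MRPL45, at -0.23. MRPL51, MRPL11 and MRPL27 had 0.76, 0.44 and 0.44 after that removal. What makes short genes differ between these libraries was not tested.

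**Figure D4:**
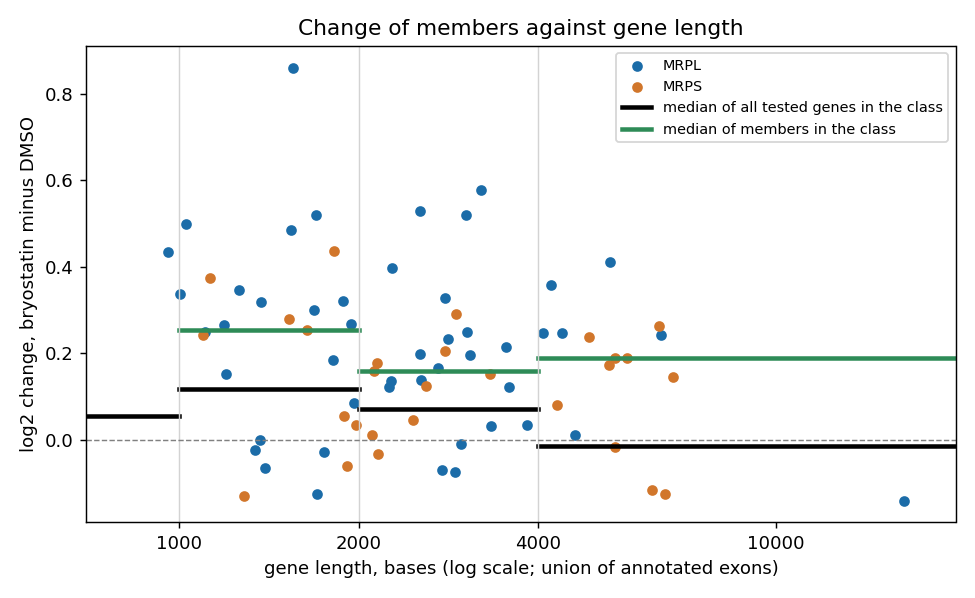
Change of each tested member against its gene length (log axis), MRPL in blue and MRPS in orange; black bars are the median change of all tested genes in a length class and green bars that of the members. The green bars lie above the black bars in the 3 classes with more than 1 member, at 0.25, 0.16 and 0.19 against 0.12, 0.07 and -0.01.

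Some promoter motifs were more frequent in these genes than in tested genes, and others were equally or less frequent. RefSeq promoters (GRCh38.p14, 250 bases before to 50 after a start) were found for 69 of the 78 members. The letters CCGGAAG, a core bound by ETS-family factors, were present on either strand in 43.5% of members, against 25.5% of tested genes with a promoter entry and 12.2% of all genes in the set. AAGATGGC, bound by YY1, was present in 30.4%, against 7.64% and 3.52%. The E-box CACGTG, the form bound by MYC with MAX, was present in 13.0%, close to the 13.2% of tested genes. GGGCGG, bound by Sp1, was present in 60.9% of members and 78.0% of tested genes, TATAAA in 4.35% and 7.20%, and the NRF1 palindrome in 1.45% and 3.08%. The 29 tested members with the ETS letters had a median change of 0.24 and the 38 without 0.15, while the 19 with the YY1 letters had 0.05 and the 48 without 0.20. These matches are letters in a window and not measured binding, and the differences between the medians were not tested. The 100 bases before the RefSeq start are shown for MRPL11, the member with the smallest p, and for the 5 named members with ETS letters in that window and at most 18 of its bases in annotated exons. Capitals mark the ETS letters on either strand (CCGGAAG or CTTCCGG). The MRPL11 window lies inside its longer GENCODE gene. The first is of a member with no match and a change of 0.53, followed by members with a match and changes of 0.49, 0.34, 0.25, 0.17 and -0.13.
MRPL11 (chr11:66438849-66438948, minus strand): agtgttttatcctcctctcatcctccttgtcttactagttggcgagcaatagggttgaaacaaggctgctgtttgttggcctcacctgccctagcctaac
MRPL33 (chr2:27771619-27771718, plus strand): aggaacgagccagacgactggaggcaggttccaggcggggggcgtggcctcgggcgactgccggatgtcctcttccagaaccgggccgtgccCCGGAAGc
MRPL54 (chr19:3762582-3762681, plus strand): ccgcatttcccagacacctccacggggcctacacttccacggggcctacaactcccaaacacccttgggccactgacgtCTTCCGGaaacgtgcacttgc
MRPL58 (chr17:75012570-75012669, plus strand): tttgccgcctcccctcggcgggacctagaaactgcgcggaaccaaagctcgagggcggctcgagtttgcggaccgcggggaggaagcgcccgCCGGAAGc
MRPL3 (chr3:131502972-131503071, minus strand): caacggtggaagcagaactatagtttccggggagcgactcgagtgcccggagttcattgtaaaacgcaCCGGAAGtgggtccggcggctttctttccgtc
MRPS18A (chr6:43687792-43687891, minus strand): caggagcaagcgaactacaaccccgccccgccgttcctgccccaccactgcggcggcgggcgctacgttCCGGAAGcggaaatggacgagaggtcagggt

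Many members start near a gene on the opposite strand, by the outermost ends of the annotated genes. Such a start can lie far from the RefSeq start, as in MRPL11 and MRPS22. In GENCODE 29, 29 of 78 members (37.2%) had the start of another protein-coding gene within 1000 bases on the opposite strand, against 13.0% of all nuclear protein-coding genes. MRPL46 and MRPS11 are each other's partner, 34 bases apart, and had changes of 0.24 and 0.19. Of 28 pairs 22 had both genes tested, where the median change was 0.24 for the members and 0.05 for the partners, and 15 pairs had changes of the same sign. Across these 22 pairs the Pearson correlation of the changes was 0.03 and the Spearman correlation 0.11. MRPL52 and its partner SLC7A7, an amino acid transporter gene that starts 59 bases away, had changes of 0.58 and -0.47. Of the 22 partners 3 were called higher and 3 lower (10.5% and 7.18% of all tested genes).

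The other genes of mitochondrial translation were taken from lists of known members. The 5 mitochondrial ribosomal proteins without an MRPL or MRPS name had a median change of 0.26. Of these 3 were called higher and 0 lower (10.5% and 7.18% of all tested genes). AURKAIP1, a small-subunit protein, was at 92.4, 94.8 and 87.9 FPKM in DMSO and 129.0, 114.2 and 108.7 FPKM with bryostatin, a change of 0.35. CHCHD1 and GADD45GIP1 had changes of 0.47 and 0.26, and DAP3 and PTCD3, the longer-known small-subunit proteins, -0.01 and -0.11. None of the 5 passed after adjustment (adjusted p = 0.217 or more in limma).

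Assembly factors, translation factors and tRNA synthetases of mitochondria are read here against all tested genes, of which 53.9% were higher, 10.5% called higher and 7.18% called lower. Of 26 assembly factors 20 (76.9%) were higher and 3 (11.5%) called higher (the RNA-modifying enzymes MRM2 and MRM1 with 0.26 and 0.33 and the pseudouridine synthase homologue RPUSD3 with 0.18), with a median of 0.09. Of 17 translation factors 10 (58.8%) were higher, 2 (11.8%) were called higher and 1 lower, with a median of 0.01. PDF, the deformylase that removes the formyl group from new mitochondrial proteins, was at 8.30, 8.04 and 9.92 FPKM in DMSO and 17.3, 15.2 and 12.7 FPKM with bryostatin, a change of 0.72 without overlap. SLIRP, an RNA-binding partner of LRPPRC, had 0.38, and OXA1L, which inserts new proteins into the inner membrane, -0.28. Of 19 tested synthetase and amidotransferase genes 14 (73.7%) were higher and 0 were called in either direction in limma, with a median of 0.06. Among 5 transcription genes of mitochondrial DNA, TFB2M had 0.44 and the median was 0.05.

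The RNAs of mitochondrial DNA varied between libraries of 1 group. The 2 mitochondrial ribosomal RNAs, MT-RNR1 and MT-RNR2, had changes of -0.11 and -0.14, neither called, and libraries selected for poly(A) count them only in part. The 13 mitochondrial mRNAs were at medians of -0.26, 0.01 and 0.16 in DMSO and 0.08, 0.25 and -0.10 with bryostatin, with a median change of 0.14 and overlapping groups. Cytosolic ribosomal protein genes, given for comparison, had a median change of 0.08 over 87 tested genes, with 8 called higher (9.20%) and 0 lower. Their library medians were 0.10, 0.01 and -0.15 in DMSO and 0.05, 0.06 and -0.02 with bryostatin, so the groups overlapped, and without DMSO replicate 3 their median change was -0.014. The difference between the 2 kinds of ribosomal protein genes was not tested.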

How the data were processed

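The authors deposited FPKM values and gene lengths for 58735 genes. Tools in the submitters' processing notes are DESeq2 1.20.0, CASAVA, featureCounts 1.5.0-p3 and HISAT2 2.0.5, with genome build hg38. For their order, the annotation release and the strand setting, the labels give nothing. All 58735 rows have the coordinates of GENCODE 29, and each length equals the union of its exons. Multiplied by gene length and a constant for each library, 100% of the values came within 0.02 of whole reads, and these were used as read numbers.

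In R 4.3.3, limma 3.58.1 compared log2(FPKM + 1) between the groups, 3 libraries against 3, moderated with an intensity trend, for the 11071 genes whose mean FPKM reached 1. P-values were adjusted over all 11071 genes by Benjamini-Hochberg with a threshold of 0.05. No p-value was computed for the group of genes. A length trend was removed by loess with a span of 0.5. The members and lists were chosen with earlier results of these data known. Named members were the 8 largest upward and 4 lowest changes, the 4 most abundant, the 3 longest and 3 shortest, the MRPS18 paralogs and 12 genes of known role, and from each list up to 3 genes with the smallest p. On simulated data for the comparison of bryostatin with DMSO (11071 genes, 5 simulations), 82.7% of genes changed 2-fold and 95.6% of those changed 4-fold passed an adjusted p of 0.05, as did 58 of 54403 unchanged genes. Differences smaller than 2-fold were not simulated. The simulated spread was drawn separately for each gene and library, without a length trend or a library that differs across many genes. The rates may therefore not hold for the real libraries. Each pair of libraries differed by more than counting error (chi-square per gene of at least 11.6). Alternatives covered the pseudocount, the filter, the scaling, the moderation, trends on length and GC content, the replicate block and each library left out.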

Additional observations from a re-analysis of the deposited data

How the results depend on the processing

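The median change of the members was upward in all 23 alternatives, from 0.12 to 0.23. Several of these could not alter the change itself: both moderation settings, protein-coding genes only and the replicate block. All use the same libraries, so they are not independent checks. The median moved by more than the spread between libraries with quantile normalisation (0.12) and with the trend on coding transcript length removed (0.12). The number of members at an unadjusted p under 0.05 was 27 in the comparison itself (10.5% of all genes called higher). It was 17, 1 of them lower, with the length trend removed (8.17%). It was 14 with the trend on coding transcript length removed (8.04% of all genes called higher). With 1 library left out it was 15 to 31 (5.06% to 15.6%). The number of genes of any kind passing after adjustment was 1 with a pseudocount of 0.1 and 1 with TPM, and 0 to 267 with 1 library left out, the highest without DMSO replicate 3. The correlation of change with gene length, -0.25, was -0.15 with quantile normalisation, -0.068 with the length trend removed and -0.11 with that on coding transcript length removed. Of 29 named members 4 turned sign: MRPS18B (-0.057 with quantile normalisation, -0.044 with the length trend removed, with and without the block, -0.033 with that on coding transcript length), MRPS22 (-0.070 to 0.057 with 1 library left out, the highest without DMSO replicate 3), MRPL44 (-0.15 to 0.055, above 0 without DMSO replicate 1, at 0.010, or 3) and MRPL42 (0.012 with the coding transcript trend removed). The trends on coding transcript length and GC content were added after the data were seen. A replicate block gave 15 members, against 7.08% of all genes called higher. With the length trend removed too it gave 10, against 5.07% of all genes, and a correlation of -0.068. Same-numbered libraries did not deviate together (correlations of -0.29, -0.32 and -0.11), and no library correlated best with its own number. The highest correlation was 0.32, of DMSO replicate 1 with bryostatin replicate 2. Deviations from the mean of so few libraries cannot show whether same-numbered ones shared a culture or batch. Members with few reads, such as MRPL53 with 39 to 54 per library, are limited by depth.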

Other observations

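Besides the 78 protein-coding genes, 77 rows with an MRPL or MRPS symbol were of other types, and 1 of them had a mean of at least 1 FPKM. This was MRPL45P2, an unprocessed pseudogene copy of MRPL45, at 2.19, 2.22 and 1.69 FPKM in DMSO and 2.06, 2.12 and 1.99 FPKM with bryostatin. Reads of such copies cannot be assigned with certainty, which limits the values of MRPL45 as well.

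MRPL36, a very small protein of the large subunit, had the widest interval after MRPL12, from -0.61 to 0.47, and was chosen after its values were seen. It was at 55.3, 37.1 and 50.7 FPKM in DMSO and 37.6, 62.5 and 38.4 FPKM with bryostatin, so each group held both high and low libraries. These values rest on 994 to 1900 reads per library. Its head-to-head partner NDUFS6, a subunit gene of respiratory complex I whose start lies 34 bases away, had a change of 0.66.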
